A study of Mus musculus with 6 samples.

Results

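Lyz2, Ccr2, Ccr1, Cybb, Aif1, Mpeg1 and Fcgr2b are genes by which macrophages, microglia and monocytes are recognised, and these 7 were taken by their symbols from a table of 701 genes. They were measured by RNA-seq 1 day after optic nerve crush (ONC) in retina from the ventrotemporal (VT) periphery of WT mice and Slc6a4-/- mutants, an injury that damages the axons of retinal ganglion cells. Slc6a4 encodes the serotonin transporter SERT, and the comparison asks which transcripts differ between injured VT retina with and without it. WT mice were C57BL/6J, and Slc6a4-/- mice were a knockout line obtained separately, so that other differences between the lines cannot be told apart from the loss of Slc6a4. All mice of both genotypes were 8 weeks old (postnatal day 56), had the left optic nerve crushed for 5 s and gave the injured retina 24 h later. There were 3 samples per genotype, each pooling VT retinae of 3 mice, and mice of both sexes were used, without a statement of which pools held which. No uninjured retina was analysed here, so every value below is a level after injury. The 701 genes had been selected by the authors at a p-value below 0.05 between these same samples, and the 7 genes were chosen with their differences known. Their differences between genotypes are therefore given as a description, without a test, and the intervals printed with them cover counting error and not the difference between genotypes.

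Macrophages, microglia and monocytes are related myeloid cells that take up debris and pathogens. Microglia reside in the retina from development onward, whereas monocytes circulate in blood, can enter injured tissue through chemokine receptors such as CCR2 and there become macrophages. Neutrophils and dendritic cells also express several of these genes, so none of the 7 marks one cell type on its own.

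The library totals recovered from the table ran from 75.267 to 93.973 M reads, and a count was scaled by dividing it by its library's total and multiplying by the mean total of 83.075 M reads. All values called scaled counts below are on this scale. These totals are larger than the read number the study's methods state per sample, and whether both ends of a read pair were counted is not given, so reads per M and RPKM could all be off by a common factor that leaves ratios between genotypes unchanged. Values are given in the order of the sample numbers throughout. Slc6a4 itself had 1516, 1397 and 1548 WT reads but 0, 0 and 3 reads in the Slc6a4-/- libraries, in accord with the labels. Its scaled count was at least 560-fold lower in Slc6a4-/- when each library is given no fewer than 3 reads. The 7 genes were all below the table's median level of 409.9 scaled counts, with means over the 6 samples from 4.863 (Ccr2) to 185.8 (Lyz2). Only 2 of the 701 genes had a lower mean than Ccr2. Of the 24 core macrophage and microglia genes and the 4 monocyte genes also looked for, such as Cx3cr1, Tmem119, Csf1r, C1qa, Spi1 and Ly6c2, 0 were among the 701 genes analysed here. The 701 are the genes past both the authors' p-value cut and their minimum of 10 reads in 2 samples of a genotype. An absent marker did not meet both, and which of them it missed is not known. The cell type named by these 7 genes could therefore not be checked against its other markers.

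The positions are those of GENCODE on GRCm38, the build of the deposited table, and each gene is protein-coding. Lyz2 (ENSMUSG00000069516) lies on the minus strand at chr10:117277331-117282321, Cybb (ENSMUSG00000015340) on the minus strand at chrX:9435252-9487771 and Mpeg1 (ENSMUSG00000046805) on the plus strand at chr19:12460779-12465283. Aif1 (ENSMUSG00000024397) lies on the minus strand at chr17:35170991-35176068 and Fcgr2b (ENSMUSG00000026656) on the minus strand at chr1:170958617-170976547. The chemokine receptor genes Ccr1 (ENSMUSG00000025804, minus strand, chr9:123962124-123968692) and Ccr2 (ENSMUSG00000049103, plus strand, chr9:124101950-124113557) are neighbours, with 133 kb between them. Within 500 kb of that stretch lie 18 protein-coding genes, of which 3 were in the table, Ccr1, Ccr2 and Slc6a20a. Some reads could belong to near copies or to other genes that share stretches of sequence. Of the 75-base stretches of its transcripts, Lyz2 shared 5.96% with its neighbour Lyz1. Fcgr2b shared 5.43%, among others with Cplx2, Gm47409 and Fcgr3. Ccr1, Cybb, Aif1 and Mpeg1 shared 0. Exons of Fcgr2b overlap those of Gm38204 on the opposite strand over 155 bases. The libraries kept strand, but the strand setting of the counting is not given in the sources used here.

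Transcription of myeloid genes depends on PU.1, which binds sites with the core GAGGAA, and on interferon regulatory factors (IRF), which bind pairs of GAAA that are 2 bases apart. The 250 bases before the start site of all 7 genes, taken from RefSeq on GRCm38.p6, were searched on both strands for these letters and for the TATA box TATAAA. The windows of Ccr1, Cybb and Aif1 held a match and are shown 5′ to 3′ on the strand of the gene, with the matches in capitals, because they are the promoters among the 7 genes in which these letters occur.
Ccr1: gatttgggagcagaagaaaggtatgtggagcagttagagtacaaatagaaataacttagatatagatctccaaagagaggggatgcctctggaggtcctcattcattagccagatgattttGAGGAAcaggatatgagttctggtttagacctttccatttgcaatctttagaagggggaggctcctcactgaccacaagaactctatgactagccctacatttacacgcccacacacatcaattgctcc
Cybb: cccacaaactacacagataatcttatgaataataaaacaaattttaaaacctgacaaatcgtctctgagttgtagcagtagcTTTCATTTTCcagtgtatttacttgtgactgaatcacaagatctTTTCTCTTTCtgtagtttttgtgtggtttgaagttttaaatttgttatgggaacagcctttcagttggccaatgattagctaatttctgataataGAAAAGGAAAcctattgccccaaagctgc
Aif1: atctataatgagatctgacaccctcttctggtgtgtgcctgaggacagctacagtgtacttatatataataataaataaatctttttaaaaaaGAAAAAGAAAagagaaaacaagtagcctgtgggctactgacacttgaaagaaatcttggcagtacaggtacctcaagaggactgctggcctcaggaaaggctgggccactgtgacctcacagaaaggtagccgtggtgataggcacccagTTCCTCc
The Ccr1 window (chr9:123968693-123968942, minus strand) held GAGGAA at position -129, counted back from the start site. The Cybb window (chrX:9469325-9469574, minus strand) held the IRF pair at -168 and -124 on the opposite strand and at -29 on the strand of the gene, and it lies inside the annotated gene without touching an exon. The Aif1 window (chr17:35176053-35176302, minus strand) held the IRF pair at -157 and GAGGAA on the opposite strand at -7, and its last 16 bases are annotated as exon. The windows of Lyz2, Ccr2, Mpeg1 and Fcgr2b held neither, and TATAAA was found in 0 of the 7. Annotated exon made up 233 of the 250 bases of the Ccr2 window, 187 of Fcgr2b, 49 of Lyz2 and 0 of Mpeg1. For Ccr2 and Fcgr2b the search thus covered mostly sequence that GENCODE places in an exon. Among 32851 mouse promoter windows of the same length, GAGGAA occurred in 23.3%, the IRF pair in 3.0% and TATAAA in 12.4%. A match is a run of letters and was not measured as a bound site.

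The mean of each of the 7 genes was higher in the Slc6a4-/- VT retina, from 1.52-fold for Mpeg1 upward when the summed reads are set per library total, and 5 of the 7 had every Slc6a4-/- sample above every WT sample. Lyz2 and Aif1 were the exceptions, each with WT sample 1 above the lowest Slc6a4-/- sample. In the table as a whole, 397 of 701 genes (56.6%) had the higher mean log2 value in Slc6a4-/-, and 242 (34.5%) had all Slc6a4-/- samples above all WT samples, among 408 (58.2%) with groups apart in either direction. The table and the 7 genes were chosen on this contrast, so these shares are the background and the difference from them is not a result. In pooled tissue, more cells of a type and more RNA per cell cannot be told apart.

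Lyz2 encodes lysozyme M, which cleaves bacterial cell walls and is made by macrophages, monocytes and neutrophils. It was the most abundant of the 7, with 188, 119 and 75 WT reads against 349, 237 and 172 Slc6a4-/- reads. On the scaled counts, WT was 207.5, 124.0 and 79.06 and Slc6a4-/- was 308.5, 219.9 and 176.1. The groups overlapped, since WT sample 1 was 31.4 scaled counts above Slc6a4-/- sample 3. The means were 136.8 ± 65.2 in WT and 234.8 ± 67.5 in Slc6a4-/- (SD, n = 3 pools each), a log2 difference of 0.85 with a standard error (SE) of 0.38 on the log2(scaled count + 1) scale. That difference was 0.51, under 1.5-fold, without WT sample 3.

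Mpeg1 encodes perforin-2, a pore-forming protein of macrophages that acts on engulfed bacteria. Its reads were 79, 66 and 59 in WT and 120, 146 and 86 in Slc6a4-/-. After scaling, the values were 87.19, 68.76 and 62.2 in WT and 106.1, 135.5 and 88.05 in Slc6a4-/-. The groups did not overlap, but WT sample 1 and Slc6a4-/- sample 3 were 0.855 scaled counts apart, less than 1 read. The means were 72.72 ± 13.0 and 109.9 ± 23.9, and the log2 difference of 0.58 (SE 0.25) was the smallest of the 7.

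Cybb encodes gp91phox, the catalytic subunit of the phagocyte NADPH oxidase, which makes superoxide. It had 19, 24 and 13 reads in WT and 49, 44 and 28 reads in Slc6a4-/-. The scaled counts were 20.97, 25.01 and 13.7 in WT against 43.32, 40.83 and 28.67 in Slc6a4-/-. WT sample 2, the highest of its group, was 3.66 scaled counts below Slc6a4-/- sample 3. The means were 19.89 ± 5.73 and 37.6 ± 7.84, with a log2 difference of 0.90 (SE 0.34).

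**Figure D1:**
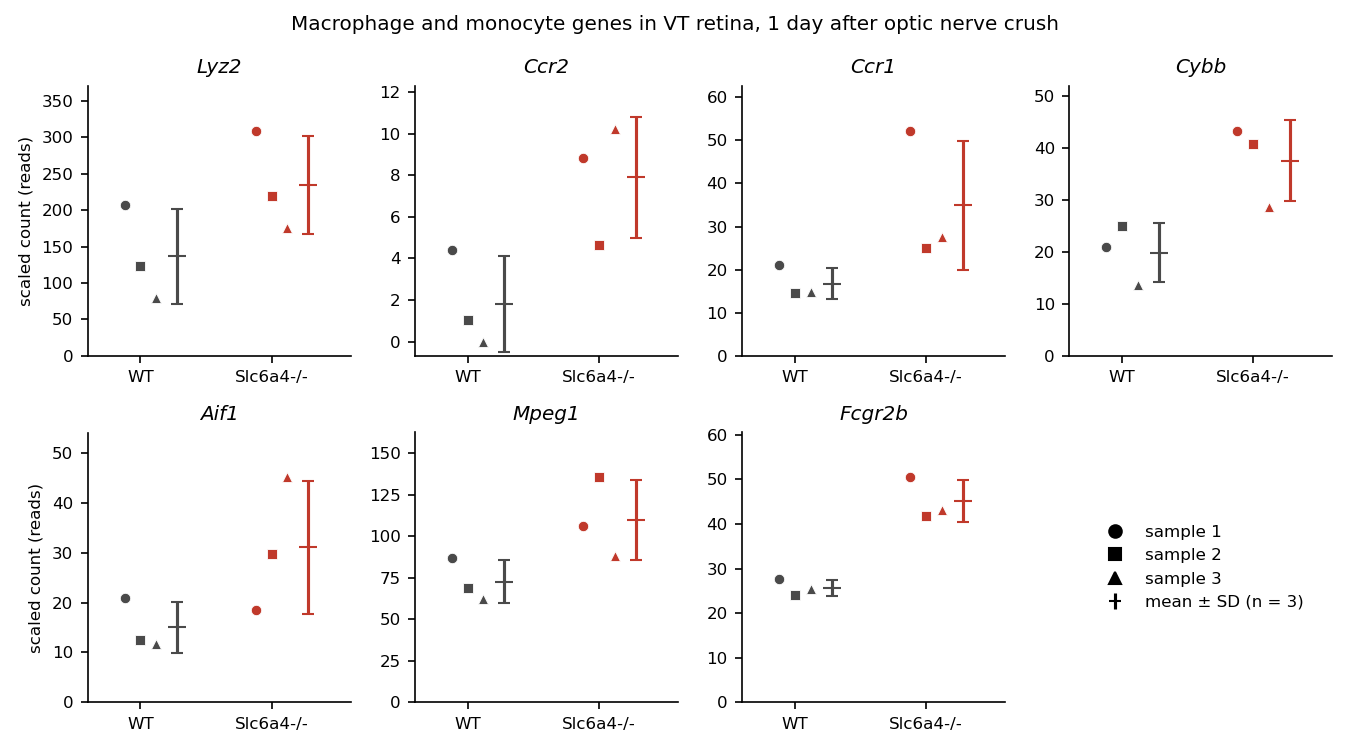
Scaled read counts (y axis, linear; each gene has its own scale) of the 7 genes in the 3 WT samples (grey) and the 3 Slc6a4-/- samples (red), with marker shapes for the sample number and bars for mean ± SD (n = 3 pools). The groups overlap for Lyz2 and Aif1 and are apart for the other 5 genes, by the widest margin for Fcgr2b, and the SD bar of Ccr2 in WT reaches below 0 because its 3 values run from 0 to 4.415.

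The plot of scaled counts by sample places the receptors beside these effector genes. Ccr2, the receptor for CCL2 through which monocytes leave the bone marrow and enter tissue, had the fewest reads, with 4, 1 and 0 in WT and 10, 5 and 10 in Slc6a4-/-. No WT sample reached 10 reads and 2 Slc6a4-/- samples did, so Ccr2 met the authors' minimum of 10 reads in 2 samples through Slc6a4-/- alone, as 64 of the 701 genes met it through one genotype, and such a gene had to differ. The 0 reads in WT sample 3 allow up to 3 reads, or 0.038 per M reads. Its scaled counts were 4.415, 1.042 and 0 in WT and 8.84, 4.64 and 10.24 in Slc6a4-/-, and the groups were apart by 0.225 scaled counts, under 1 read. The means were 1.819 ± 2.31 and 7.906 ± 2.91. The log2 difference of 1.94 (SE 0.73) was the highest of the 7 and also had the widest error. Summed over samples there were 5 reads in WT and 25 in Slc6a4-/-, a ratio per library total of 4.42 with an exact 95% interval from 1.66 to 14.8 that covers counting error only.

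Ccr1, the receptor for CCL3 and CCL5 on monocytes, macrophages and neutrophils, had 19, 14 and 14 reads in WT and 59, 27 and 27 reads in Slc6a4-/-. Slc6a4-/- sample 1 stood above the rest with a scaled count of 52.16, while the other two Slc6a4-/- samples, at 25.05 and 27.64, were nearer to the WT values of 20.97, 14.59 and 14.76. The groups did not overlap, and the gap was 4.08 scaled counts. The means were 16.77 ± 3.64 and 34.95 ± 15.0, with a log2 difference of 0.96 (SE 0.38) that was 0.64 without Slc6a4-/- sample 1.

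Fcgr2b encodes the inhibitory Fc receptor for immunoglobulin G, found on B cells as well as on myeloid cells. Its reads were 25, 23 and 24 in WT and 57, 45 and 42 in Slc6a4-/-, and its scaled counts were 27.59, 23.96 and 25.3 against 50.39, 41.76 and 43.0. It was the most even of the 7 within each genotype, and the gap of 14.2 scaled counts between the groups was the widest. The means were 25.62 ± 1.84 and 45.05 ± 4.67, with a log2 difference of 0.79 (SE 0.25).

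Aif1 encodes IBA1, an actin-binding protein whose staining is widely used to see microglia and macrophages in the retina. It had 19, 12 and 11 reads in WT and 21, 32 and 44 reads in Slc6a4-/-. Scaled, WT sample 1 (20.97) was above Slc6a4-/- sample 1 (18.56), and the remaining values were 12.5 and 11.6 in WT and 29.69 and 45.05 in Slc6a4-/-. The groups thus overlapped, and the order of the Slc6a4-/- samples was the reverse of that of Lyz2. The means were 15.02 ± 5.17 and 31.1 ± 13.3, with a log2 difference of 0.96 (SE 0.43).

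**Figure D2:**
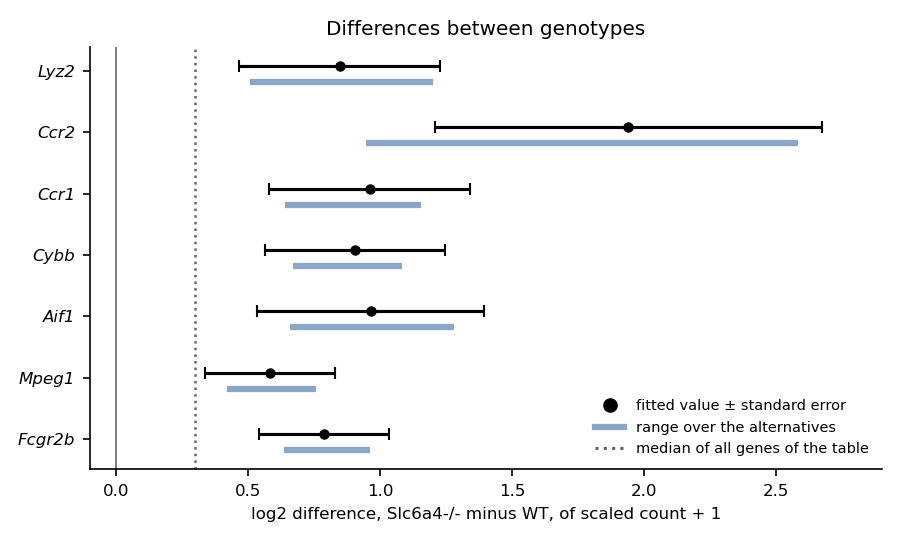
Log2 difference of each gene between genotypes (x axis, Slc6a4-/- minus WT, of scaled count + 1), with points for the fitted value, bars for its SE and blue lines for the range over the other processing settings. All fitted values and ranges lie above 0, and the dotted line marks 0.30, the median of all 701 genes.

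Across the 7 genes the log2 differences ran from 0.58 (Mpeg1) to 1.94 (Ccr2) with a median of 0.90. By these fitted differences 6 of the 7 were over 1.5-fold higher in Slc6a4-/-. Mpeg1 was just under by this measure, and at 1.52-fold by summed reads. Without Ccr2 the median was 0.87. Over all 701 genes the median log2 difference was 0.30, over the genes higher in Slc6a4-/- it was 0.64, and 216 genes (30.8%) were over 1.5-fold higher. The plot of the differences shows that the error bars of 6 genes overlap one another, and those of Ccr2 stand apart only from Mpeg1 and Fcgr2b.

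Counting error alone sets part of that precision. Summed over 3 samples, the reads in WT and Slc6a4-/- were 382 and 758 for Lyz2, 204 and 352 for Mpeg1, 72 and 144 for Fcgr2b, 56 and 121 for Cybb, 47 and 113 for Ccr1 and 42 and 97 for Aif1. The ratios of these sums per library total, with exact 95% intervals for counting error only, were 1.75 (1.55 to 1.99) for Lyz2, 1.52 (1.28 to 1.82) for Mpeg1 and 1.77 (1.32 to 2.38) for Fcgr2b. They were 1.91 (1.38 to 2.67) for Cybb, 2.12 (1.5 to 3.05) for Ccr1 and 2.04 (1.41 to 3.0) for Aif1. The reads were amplified without molecular identifiers, and both ends of a pair may have been counted, so the true counting error may be wider.

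The spread between pools differed widely among the 7 genes. For Lyz2 the coefficient of variation (CV, the SD as a share of the mean) was 47.6% in WT and 28.7% in Slc6a4-/-, where counting alone would give 8.86% and 6.29%. Fcgr2b was at the other end, with 7.17% and 10.4% against 20.4% and 14.4% from counting, so its 3 pools were closer together than counting error would place them on average. Ccr1 was below its counting error in WT (21.7% against 25.3%) and above it in Slc6a4-/- (42.8% against 16.3%), and Aif1 had the same CV of 42.8% in Slc6a4-/- against 17.6% from counting. Cybb (28.8% and 20.8%), Mpeg1 (17.8% and 21.8%), Aif1 in WT (34.4%) and Ccr2 (127.0% and 36.9%) exceeded their counting error by smaller factors.

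**Figure D3:**
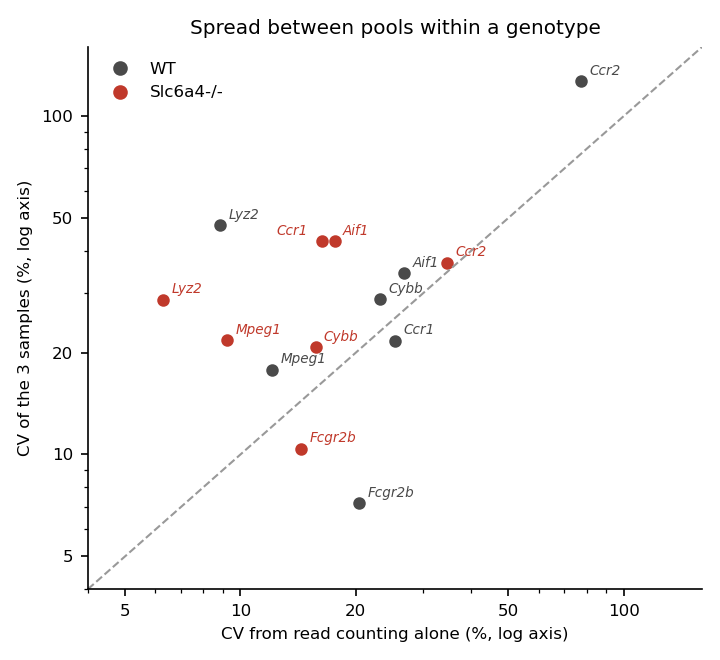
CV of the 3 scaled counts of each gene (y axis, %) against the CV expected from read counting alone (x axis, %), on log axes, for WT (grey) and Slc6a4-/- (red), with a dashed line where both are equal. Lyz2 lies farthest above the line in both genotypes, and Fcgr2b in both genotypes and Ccr1 in WT lie below it.

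To compare the genes with one another, levels were set per kb of exon and M reads (RPKM), with the exon lengths of GENCODE. The order in RPKM was the same in both genotypes. Lyz2 led with 1.25 ± 0.6 RPKM in WT and 2.15 ± 0.62 in Slc6a4-/-, followed by Mpeg1 with 0.202 ± 0.036 and 0.305 ± 0.066, and Aif1 with 0.118 ± 0.041 and 0.244 ± 0.1. Ccr1 had 0.0713 ± 0.015 and 0.149 ± 0.064, Fcgr2b 0.0533 ± 0.0038 and 0.0937 ± 0.0097, Cybb 0.0412 ± 0.012 and 0.0779 ± 0.016, and Ccr2 0.00324 ± 0.0041 and 0.0141 ± 0.0052 (SD, n = 3). In WT, Fcgr2b and Cybb overlapped in their sample values and all other neighbours in this order were apart. In Slc6a4-/-, Mpeg1 and Aif1, Aif1 and Ccr1, and Fcgr2b and Cybb overlapped, so the order of these neighbours is not beyond their spread.

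The samples of a genotype also differed from one another. Summed over the 7 genes, WT pools reached 389.6, 269.8 and 206.6 scaled counts and Slc6a4-/- pools 587.9, 497.4 and 418.7, or 4.69, 3.25 and 2.49 against 7.08, 5.99 and 5.04 reads per M reads. Lyz2 made up 38.3% to 53.3% of these sums. Without Lyz2 the sums were 182.1, 145.9 and 127.6 in WT and 279.4, 277.4 and 242.6 in Slc6a4-/-, and the ratio of the group means was 1.75, against 1.74 with it. WT sample 1 was the highest WT sample for 6 of the 7 genes, all but Cybb, and WT sample 3 the lowest for 5. In Slc6a4-/- the order was less shared, with sample 1 highest for 4 genes, sample 3 for Ccr2 and Aif1, and sample 2 for Mpeg1.

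The ratio of Aif1 to Lyz2 shows where the 7 genes parted. Per 100 Lyz2 reads there were 10.1, 10.1 and 14.7 Aif1 reads in WT and 6.02, 13.5 and 25.6 in Slc6a4-/-. Mpeg1 gave 42.0, 55.5 and 78.7 reads per 100 Lyz2 reads in WT and 34.4 to 61.6 in Slc6a4-/-. Both ratios overlapped between the genotypes and both were lowest in Slc6a4-/- sample 1.

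When each gene's log2 values were set relative to the mean of their genotype, 18 of the 21 pairs of genes had a positive correlation over the 6 samples and 10 were above 0.5, with a median of 0.34. The pairs ranged from -0.34 for Ccr1 and Aif1 to 0.97 for Ccr1 and Fcgr2b. Lyz2 moved with 5 of the others at 0.66 to 0.78 and with Aif1 at 0.05. These correlations are descriptions over 6 samples, and the genes share the dissection, pooling and library of each sample. Among the 572 other genes of the table with a mean of at least 50 scaled counts, those whose deviations were most like the mean of the 7 genes were Ifitm2 (0.997), Mecom (0.993), Chdh (0.993), Bace2 (0.99) and A2m (0.988), the highest of many and for that reason high. Their mean scaled counts in WT and Slc6a4-/- were 102.6 and 157.8 for Ifitm2, 126.1 and 202.9 for Mecom, 149.2 and 219.6 for Chdh, 114.3 and 191.6 for Bace2 and 3372 and 5275 for A2m. None of the 5 is a defining marker of myeloid cells, and they had log2 differences from 0.62 to 0.90.

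Genes of other cells that a dissected VT retina can hold also differed from sample to sample. Of 6 pigment cell genes, 4 were in the table (Pmel, Tyrp1, Dct and Mlana), and their summed scaled counts were 638.8 to 1882 in WT and 1601 to 3247 in Slc6a4-/-, with all 4 higher in Slc6a4-/- and a median log2 difference of 1.08. Of 8 fibroblast genes, 6 were in the table, 5 of them higher in Slc6a4-/-, and the sums were 4574, 2394 and 1030 in WT and 5233, 3634 and 4259 in Slc6a4-/-. Fbln1 alone made up 3679, 1851 and 552.4 of the WT sums and 4263, 2748 and 3380 of the Slc6a4-/- sums. The exception was Col1a1, with scaled counts of 173.3, 116.7 and 318.4 in WT and 69.84, 64.95 and 108.5 in Slc6a4-/-. WT sample 1 was the highest and WT sample 3 the lowest WT sample in the sums of both lists, as in the sum of the 7 genes. Col1a1 by itself was highest in WT sample 3. Over the 6 samples, the deviations of the pigment and fibroblast lists had correlations of 0.88 and 0.90 with those of the 7 genes, as a description. For the myeloid lists described below they were lower, at 0.45 (neutrophil), 0.72 (dendritic cell) and 0.52 (other myeloid genes). No gene of these lists was at 0 reads in any sample except Omd, at 0 in WT sample 3. The part of pigment cells and connective tissue in the differences of the 7 genes was not tested.

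**Figure D4:**
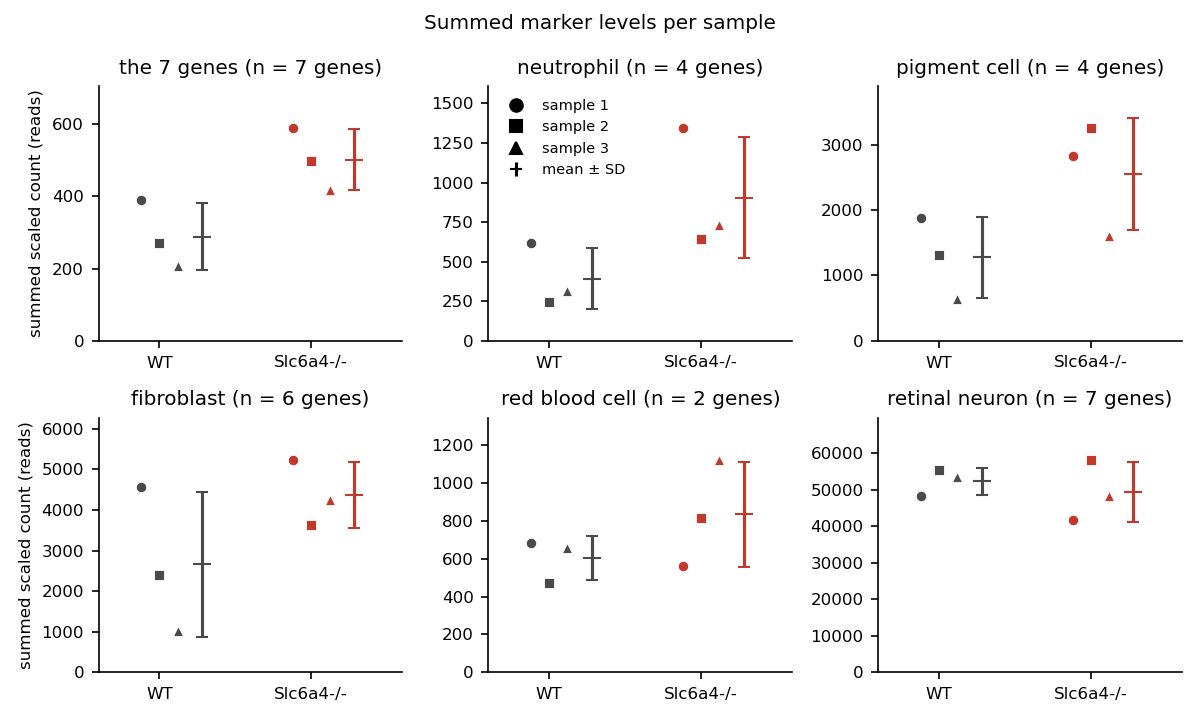
Summed scaled counts (y axes, linear, each with its own scale) of the 7 genes and of the marker genes of 5 other cell types in the 3 WT (grey) and 3 Slc6a4-/- samples (red), with marker shapes for the sample number and bars for mean ± SD. The pigment cell and fibroblast sums are highest in WT sample 1 and lowest in WT sample 3 among the WT samples, as is the sum of the 7 genes, and the retinal neuron sums overlap between genotypes.

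As the plot of summed marker levels shows, blood cell and neuron markers followed other orders. The haemoglobin genes Hbb-bs and Hbb-bt, the 2 of 5 red blood cell genes in the table, summed to 473.0 to 682.1 in WT and 562.2 to 1120 in Slc6a4-/-, with the highest value in Slc6a4-/- sample 3, and their deviations had a correlation of -0.31 with those of the 7 genes. Of 9 retinal neuron genes, 7 were in the table, with sums of 48310 to 55470 in WT and 41740 to 58190 in Slc6a4-/-, 5 of them lower in Slc6a4-/- and a correlation of -0.81. The 6 nasal and orbital gland genes were all lower in Slc6a4-/-, with sums of 100.4 to 245.6 against 44.54 to 82.21 and a correlation of -0.43. Their part in the differences of the 7 genes was not tested.

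Neutrophils also make Lyz2, Cybb and Ccr1. Of 12 neutrophil genes, 4 were in the table (S100a8, S100a9, Lcn2 and Slfn4), all higher in Slc6a4-/-, with summed scaled counts of 615.9, 248.0 and 318.4 in WT and 1342, 642.1 and 733.1 in Slc6a4-/-, so that the sums did not overlap. Lcn2 made up most of each sum, with 568.4, 216.7 and 257.2 in WT and 817.7, 482.5 and 609.2 in Slc6a4-/-, and its own groups overlapped. The lowest Slc6a4-/- values of S100a8 (10.24) and S100a9 (27.64) were close to the highest WT values of 9.934 and 27.41. Slfn4 had 11, 9 and 24 reads in WT and 417, 113 and 84 reads in Slc6a4-/-. S100a8, a calcium-binding protein abundant in neutrophils, had 9, 4 and 8 reads in WT and 77, 15 and 10 in Slc6a4-/-. Like Lyz2, Ccr1, Cybb and Fcgr2b, these 2 genes were highest in Slc6a4-/- sample 1. The defining neutrophil genes Ly6g, Mpo and Elane were not among the 701 genes analysed here, Lcn2 is also made by injured glia, and the part of neutrophils in the values of Lyz2, Cybb and Ccr1 was not tested. Of 8 dendritic cell genes 2 were in the table, and they differed in opposite directions. H2-Aa had 36, 20 and 10 reads in WT and 49, 64 and 43 in Slc6a4-/-. Zfp366 had 56, 51 and 50 against 36, 50 and 35, a log2 difference of -0.56 with groups apart once scaled.

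The table held 23 other genes expressed by myeloid cells, a list written after its gene names had been read and including the neutrophil and dendritic cell genes above. Of these 18 were higher and 5 lower in Slc6a4-/-, with a median log2 difference of 0.89, and 14 had all Slc6a4-/- samples above and 4 all below the WT samples, where 34.5% of the table was above and 58.2% apart either way. By limma 0 of the 23 passed an adjusted p of 0.05 with 1.5-fold (8 of 701, or 1.14%, in the table), and 12 had an unadjusted p under 0.05 (45.9% in the table). That 0 became 5 with unscaled counts, 4 without the variance trend, 3 without WT sample 1, and 1 each without WT sample 3 and with a replicate block. The list was chosen from a table selected on this contrast, so nothing is read from these counts. Among the receptors, Ptafr, the receptor for platelet-activating factor, had 11, 5 and 2 reads in WT and 24, 10 and 19 in Slc6a4-/-, with overlapping groups. Cd36, a scavenger receptor also made by pigment epithelium and endothelium, had 69, 69 and 63 reads against 119, 123 and 96. Il1rn, which encodes the antagonist of the interleukin-1 receptor, had 6, 4 and 8 reads in WT and 31, 16 and 18 in Slc6a4-/-.

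The myeloid genes did not all differ in one direction, and Zfp366 above was among the lower ones. Bin2, an adaptor protein of leukocytes and microglia, had 40, 42 and 48 reads in WT and 30, 26 and 31 in Slc6a4-/-, with a log2 difference of -0.74 (SE 0.25) and groups apart. Il1a, which encodes the cytokine interleukin-1 alpha, had 8, 10 and 17 reads in WT and 8, 6 and 1 in Slc6a4-/-, with groups apart once scaled. Il1b, which encodes interleukin-1 beta, had 22, 19 and 16 against 97, 24 and 28. Its groups overlapped once scaled, with WT sample 1 (24.28) above Slc6a4-/- sample 2 (22.27), and Slc6a4-/- sample 1 (85.75) stood above the rest. Hcls1, an actin regulator of blood cells, had 304, 492 and 476 reads in WT and 355, 351 and 384 in Slc6a4-/-, with overlapping groups. Arhgap15, a regulator of Rac expressed in leukocytes, had 188, 239 and 286 against 210, 213 and 186, with groups apart once scaled. The lower genes thus included leukocyte genes (Hcls1 and Arhgap15) with more reads in every sample than 6 of the 7 genes described here, all but Lyz2.

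The size of the differences depended on the scaling of the libraries more than their sign did. With median-of-ratios scaling over the table the median log2 difference of all 701 genes was 0.14, and with unscaled counts it was 0.47, against 0.30 with the recovered totals. The median of the 7 genes moved along, to 0.75 and 1.07 from 0.90, and each of the 7 was higher in Slc6a4-/- under all 3 scalings. Leaving out WT sample 1, the highest WT sample for 6 of the genes, moved the median to 1.12 and left all 7 genes without overlap. Leaving out Slc6a4-/- sample 1 lowered it to 0.71.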

How the data were processed

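RNA-seq was done on VT retina of 3 WT and 3 Slc6a4-/- pools, and all 6 samples were assigned by their titles. The authors made rRNA-reduced stranded total RNA libraries with 13 cycles of PCR, read both ends of each fragment, and used the CLC Genomics software for alignment to GRCm38 and for counting. The table the authors deposited holds raw read counts of the 701 genes they selected, with commas between digits that were removed, and 25 blank lines were skipped. The authors also deposited, per gene, the RPKM mean of the genotype with the higher mean, as a pooled column. Fold changes, p-values and FDR values of the authors' own comparison are in the table and were not used. No column of per-sample values was left out (0).

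Library totals were recovered as the values for which count, GENCODE exon length and the authors' RPKM agree within rounding (0.0055), which held for 103 of 222 genes higher in WT and 63 of 182 higher in Slc6a4-/- with an RPKM over 1. A count model was not run. Instead, limma 3.58.1 (lmFit, eBayes with trend, R 4.3.3) was run on log2(scaled count + 1) over all 701 genes with genotype as the only term. Adjustment was by Benjamini and Hochberg over the table, and a call needed an adjusted p under 0.05 and over 1.5-fold. Nothing in the labels says that pools of a genotype came from separate litters, so SD and SE describe the spread between these pools, which may be technical, and no batch is labelled. All 701 genes had at least 10 reads in 2 samples of a genotype. Both the recovery and the limma fit were tested on simulated data. The share of Ccr2 sequence found in other genes is not reported here.

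The genes named are the 7 genes, those of the lists, the 5 with the most similar deviations and Slc6a4. The 7 genes and the lists were chosen with earlier results of these data known. The alternatives were other scalings, pseudocounts of 0.5 and 5, a minimum mean of 50 scaled counts, a replicate block, limma without trend, ratios of sums and leaving out each sample.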

Additional observations from a re-analysis of the deposited data

How the results depend on the processing

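The median log2 difference of the 7 genes was 0.90 and stayed within its spread under every alternative run, from 0.71 (without Slc6a4-/- sample 1) to 1.12 (without WT sample 1). It was 0.92 and 0.81 with pseudocounts of 0.5 and 5, 0.71 over the 2 genes left at a minimum mean of 50 scaled counts (Lyz2 and Mpeg1), and 0.92 as a ratio of sums. Over the 79 single-gene values from the alternatives, all were above 0 and 76 moved by less than the spread between pools, the exceptions being Fcgr2b with median-of-ratios scaling (0.64) and unscaled (0.96) and Ccr2 with a pseudocount of 5 (0.95). The number of the 7 genes with groups apart was 5, and 4 with median-of-ratios scaling, 6 unscaled, 1 of the 2 left at the minimum mean, and 5 to 7 when single samples were left out, with 7 without WT sample 1. Calls over the table numbered 8 (5 higher, 3 lower), and 7 with median-of-ratios scaling (3 higher, 4 lower), 114 unscaled (106 higher, 8 lower), 5 at the minimum mean (2 higher, 3 lower) and 41 without trend (28 higher, 13 lower). Leaving out single samples gave 4 (without WT sample 2) to 160 (without WT sample 1) calls, with 17 without Slc6a4-/- sample 3 and 5 without Slc6a4-/- sample 2. Of the 23 other myeloid genes 0 were called, against 5 unscaled, 4 without trend and 0 to 3 when single samples were left out, with 3 without WT sample 1 and 1 without WT sample 3. The cause of these shifts was not tested. No label says whether same-numbered samples of the 2 genotypes were processed together. Their deviations had correlations of 0.252, -0.16 and 0.08, against -0.241 to 0.138 for samples with different numbers. With 3 samples per genotype, these values cannot decide whether the numbers mark a batch. With 1 sample of each genotype per number, a replicate block cannot change a fitted difference. The median of the 7 genes was thus 0.90 by design, and the block's values among the 79 repeat the main ones. Its calls could change, and were 15 over the table (9 higher, 6 lower) and 1 among the 23 myeloid genes. For Ccr2, with 0 to 10 reads a sample, depth limits what can be said, and for Lyz2 the spread between pools does.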
